A study of Mus musculus with 19 samples.

Results

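Macrophages sorted from the whole cochlea, the organ of hearing, were compared between old and young mice by RNA sequencing. Of the 19 libraries of the study, the comparison used 6, namely 4 from old mice (replicates 1, 7, 12 and 17) and 2 from young mice (replicates 9 and 15), which were chosen by their labels alone. All mice were heterozygous for a knock-in of green fluorescent protein (GFP) into Cx3cr1, the gene of a chemokine receptor carried by most macrophages. Old and young animals alike therefore had 1 working Cx3cr1 copy, and a macrophage was a cell collected as GFP-positive, whatever other cells came with it in the sort. The old mice had reached 12 to 14 months and the young ones 1.5 months of age, and the labels give each isolate as coming from 1 mouse. A young auditory nerve and a young cochlear lateral wall had each given 1 further GFP-positive library, and these are set beside the 6 as young macrophage values that entered no test. GFP-negative cells of the whole cochlea (4 old and 4 young libraries) served to ask whether an age difference was also seen outside the macrophage sort.

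Macrophages of the inner ear live among the auditory nerve fibres, along the capillaries of the lateral wall and below the sensory epithelium, where they clear debris and present antigen. A macrophage shows peptides of its own proteins on MHC class I molecules. The peptides are cut by the proteasome, whose catalytic subunits are exchanged for the immunoproteasome subunits in immune cells and after interferon. What a macrophage takes up is broken down in lysosomes by cathepsins and other hydrolases, and Fc receptors let it bind targets coated with antibody.

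The unit throughout is the normalized read, a gene's read count divided by a factor for the library, and values are given in the order old replicates 1, 7, 12 and 17, then young replicates 9 and 15. Differences between ages are log2 differences of (value + 1), old minus young, from limma, with a Benjamini-Hochberg adjusted p over 18441 tested genes. A gene is said to have risen or fallen when that adjusted p was under 0.05. The old libraries held 50.6 to 71.6 M reads (M, mega) and had reads in 16750 to 17282 genes. Young replicate 9 held 25.4 M reads in 11652 genes and young replicate 15 held 35.1 M reads in 13532 genes. With every library thinned to 20 M reads the old libraries still showed 16491 to 16836 genes, against 11494 and 13350. The old libraries resembled each other (Pearson r of log2 values across genes, 0.959 to 0.974), and the 2 young ones did so less (0.753). Genes are not independent replicates, and r is given as a description. Over the genes with at least 20 normalized reads in each of the 6 libraries, the median SD of log2 values was 0.225 in the old and 0.722 in the young group.

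Xist, the RNA that silences an X chromosome in female cells, and the Y-linked gene Ddx3y marked the sex of the RNA. Xist stood at 0, 707, 481 and 1094 normalized reads in the old libraries, and at 2930 and 1.13 in the young ones. Ddx3y stood at 3617, 2.72, 1751 and 1224 in the old libraries, and at 0 and 1428 in the young ones. Old replicates 12 and 17 thus held both, as did the young auditory nerve library (692 and 2310), although the labels give 1 mouse per isolate. The part of sex, or of mixed isolates, in the results was not tested. Without old replicates 12 and 17, 2314 genes were called higher and 379 lower, and 378 of the latter were among those of the full comparison. Counts of calls in the groups below are given with and without these 2 libraries, where the group had calls.

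Of 9 genes set aside as sort checks or markers of the comparison, 6 were general macrophage markers, and none of these 6 passed the test. Other fits called some of them lower. A fit of the 6 libraries alone did so for Aif1 and C1qa, whose old values all lay below both young ones. With a trend over transcript length removed, as described below with its limit, Csf1r (-2.77, limma adjusted p = 0.0022), Cx3cr1 (-2.73, 0.0039) and Adgre1 (-2.97, 0.023) were lower. In the main fit their log2 differences were -0.73, -0.74 and -1.53. Cx3cr1 itself (chromosome 9, 119901616 to 120069879; positions are in mm10) stood at 9645, 9927, 8976 and 6383 normalized reads in old and 9201 and 22528 in young libraries. The values of young replicate 9 lay within the old range and that of young replicate 15 above it (log2 difference -0.74, SE 0.66, limma adjusted p = 0.41). Csf1r, the receptor for the growth factor on which macrophages depend, stood at 43633, 61252, 54047 and 36782, against 42430.5 and 148962, and its log2 difference changed from -1.63 without young replicate 9 to 0.18 without young replicate 15. The values of Adgre1, the gene of the F4/80 antigen, were 7783, 8517, 9693 and 5730.2 and 11469 and 44222 (log2 difference -1.53, adjusted p = 0.29). Aif1, C1qa and Ptprc gave log2 differences of -1.84, -1.46 and 0.03 (adjusted p = 0.28, 0.11 and 1). All 6 markers had reads in each of the 6 libraries, and their lowest value was 3171 (Aif1 in old replicate 17). The other 3 genes, Psmb8, Ctsh and Gzma, fell and are described with their groups.

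In all, 4441 genes were called higher in old macrophages and 1027 lower, which is 24.1% and 5.57% of the genes tested, or 29.7% together. The median log2 difference over all genes was 0.88. Of the 4441 higher genes 1617 had no reads in either young library of the whole cochlea, as did 4189 of all tested genes. Such genes entered the test through other groups. Among the 9261 genes with at least 20 normalized reads in each of the 6 libraries, 1104 were called higher (11.9%) and 983 lower (10.6%), around a median of -0.04. Quantile normalization, which gives all libraries the same distribution, called 2292 higher (12.4%) and 2277 lower (12.3%). The quasi-likelihood test of edgeR on whole reads called 2702 higher (14.7%) and 1065 lower (5.78%). Leaving out young replicate 9 gave 3450 higher (18.7%) and 1095 lower (5.94%), and leaving out young replicate 15 gave 6484 higher (35.2%) and 2006 lower (10.9%). With the nerve and wall libraries counted as young, 2705 were higher (14.6%) and 828 lower (4.48%). Library quality weights, which gave each young library a weight of 0.067, left 362 genes higher and 0 lower (limma, 2589 higher and 111 lower at an unadjusted p under 0.05). By edgeR 905 of the 1027 lower genes were also lower, by quantile normalization 764, without young replicate 9 533, and without young replicate 15 824. Counts of list members called are to be read against the shares of all tested genes, 24.1% higher and 5.57% lower. For well-read genes with short transcripts these shares are not the right measure. Among the 9261 genes above, 10.6% were lower. Of those with transcripts under 1000 bases 16.0% were lower and 0.177% higher, and of those with 1000 to 2000 bases 20.4% and 2.27%. All 4 old libraries lay above both young ones for 31.7% of all tested genes and below both for 13.4%. Called genes whose old values lay beyond all 4 young macrophage libraries, nerve and wall included, came to 2014 higher (10.9%) and 705 lower (3.82%). For a single gene 4 libraries against 2 cannot reach an exact permutation p below 0.133 (two-sided), so the calls rest on the spread shared across genes and groups.

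The share of genes called moved with the length of the transcript. A transcript length was found for 16510 of the 18441 tested genes (89.5%). Among transcripts under 1000 bases 7.32% were higher and 9.77% lower in old macrophages, and above 8000 bases 41.7% were higher and 0.92% lower. The gradient was also present among genes with at least 20 normalized reads in each library, with 0.177% of the shortest and 26.9% of the longest class higher, and 16.0% and 1.89% lower. A fit with the length trend of each library removed called 2261 genes higher (13.7%) and 3525 lower (21.4%). It kept 941 of the 1027 lower genes and 2137 of the 4441 higher ones. Each library's trend was fitted over genes with a high mean in the 14 libraries, with or without reads in the young macrophage libraries. Its removal also took out the library's overall offset over those genes. Genes with at least 20 normalized reads in each of the 6 libraries had median log2 differences of 0.04 (2000 to 4000 bases) and 0.58 (4000 to 8000 bases). A call lost or gained in this fit is thus no measure of the part of length. The part of transcript length in any single gene's difference was not tested, and the value after removal of the trend is given below where it ended a call or turned its direction. This fit also called lower some genes that the main fit did not, Csf1r, Cx3cr1, Adgre1, Mrc1 and Lamp1 among them.

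**Figure D1:**
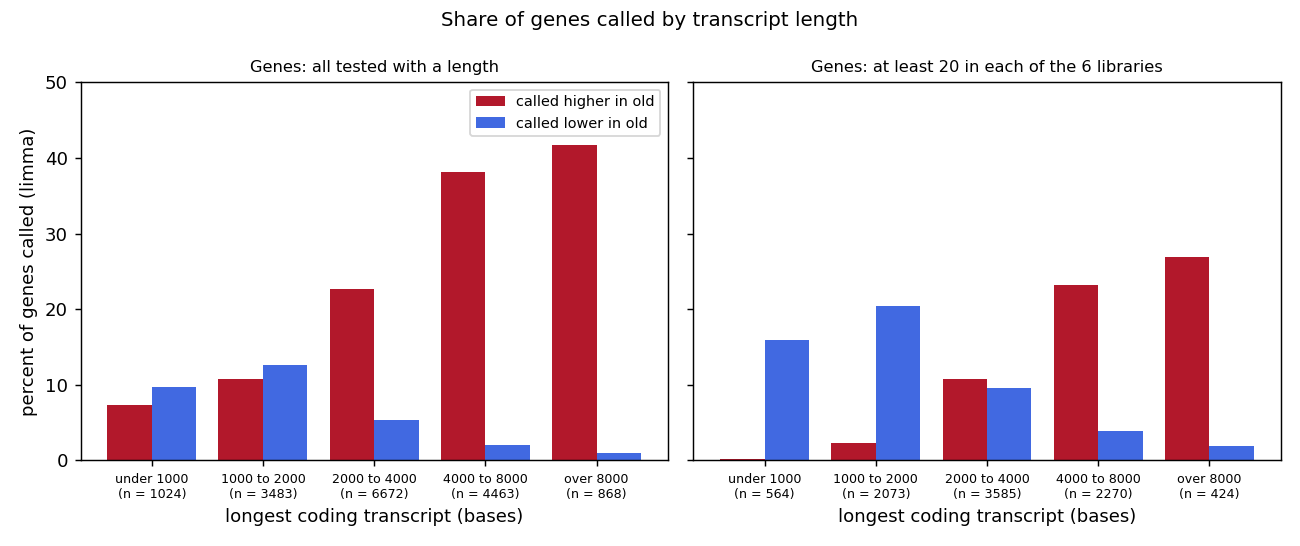
Percent of genes called higher (red) and lower (blue) in old macrophages by limma, for 5 classes of transcript length in bases. The left panel holds all tested genes with a length, where the higher share grows from 7.32% to 41.7%, and the right panel holds those with at least 20 normalized reads in each of the 6 libraries, where it grows from 0.177% to 26.9%.

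The 5 interferon-inducible genes of the proteasome list all fell in old macrophages, with young means 3.21 to 6.48 times the old ones, and the standard catalytic subunits did not pass the test. Psmb8, which encodes a catalytic subunit of the immunoproteasome, stood at 2478, 3646, 2861 and 2226 normalized reads in old and 21546 and 14800.4 in young libraries. The nerve and wall libraries stood at 14196 and 10029, so all 4 young libraries lay above all 4 old ones (log2 difference -2.70, SE 0.43, limma adjusted p = 0.00053). Psmb9, the neighbour of Psmb8 in the MHC region and another catalytic subunit, stood at 655, 904, 663 and 561 and 5039 and 2847, with 3139 in the nerve and 2474 in the wall. The ages again stood apart without overlap (log2 difference -2.47, SE 0.37, adjusted p = 0.00036). Psmb10 (chromosome 8, 105935735 to 105938444), the remaining catalytic subunit, stood at 1648, 1949.7, 1776 and 2123 against 8578 and 5096, and at 4079 and 3702 in nerve and wall. Its log2 difference was -1.82 (SE 0.43, adjusted p = 0.0075). Without young replicate 9, the higher of the pair, it was -1.45 and did not pass (adjusted p = 0.064).

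The 2 genes of the PA28 regulator, a ring that opens the proteasome and is also induced by interferon gamma, fell as well. Psme1 (chromosome 14, 55578123 to 55581529) stood at 1989, 2238, 1825 and 1742 normalized reads in old libraries, 5022 and 6204 in young ones, 6775 in the nerve and 4861 in the wall. Every young value was more than 2 times every old one (log2 difference -1.52, SE 0.24, adjusted p = 0.00043). Psme2 stood at 652, 607, 630.3 and 610.3, nearly the same level in each, against 2389 and 1623. Its nerve and wall values of 993 and 951 were the lowest of the young libraries and still above the old ones (log2 difference -1.66, adjusted p = 0.019, and 0.099 without young replicate 9). The standard catalytic subunits had other patterns. Psmb5 stood at 7206, 5359, 6925 and 9492 in old and 31686 and 7817 in young libraries, with nerve and wall (4317 and 4729.5) below every old value, and did not pass (log2 difference -1.15, adjusted p = 0.15). Psmb6 and Psmb7 likewise were high in young replicate 9 alone (23389 and 10918, against 8808 and 5080.2 in young replicate 15), with log2 differences of -0.75 and -0.65 (adjusted p = 0.21 and 0.21).

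Of the 9 genes of this list, which also holds Psme3, 5 were lower and 0 higher around a median log2 difference of -1.52, against 5.57% lower and a median of 0.88 over all tested genes. The macrophage core list, described further on, had a median of -1.28. Among genes with at least 20 normalized reads in each of the 6 libraries, 20.4% of those with transcripts of 1000 to 2000 bases were lower. The same 5 were lower by quantile normalization, by edgeR, with the length trend removed and without young replicate 15, 3 of them without young replicate 9, and 4 without old replicates 12 and 17. In the GFP-negative cells Psmb8, Psmb9 and Psme1 had age differences of -0.41, 0.29 and -0.37 on the log2 scale. The interaction in the same fit, which tests whether the age difference was unlike in the sorts, was -2.29 for Psmb8, -2.76 for Psmb9 and -1.15 for Psme1 (limma adjusted p = 0.02, 0.0024 and 0.034). It did not pass for Psmb10 and Psme2 (adjusted p = 0.18 and 0.37). In a bulk sample, fewer cells of a type and less RNA per cell cannot be told apart. Markers of T and NK cells and of endothelium, which also hold immunoproteasome RNA, were lower in the same old libraries, with values given further on, and their part was not tested.

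**Figure D2:**
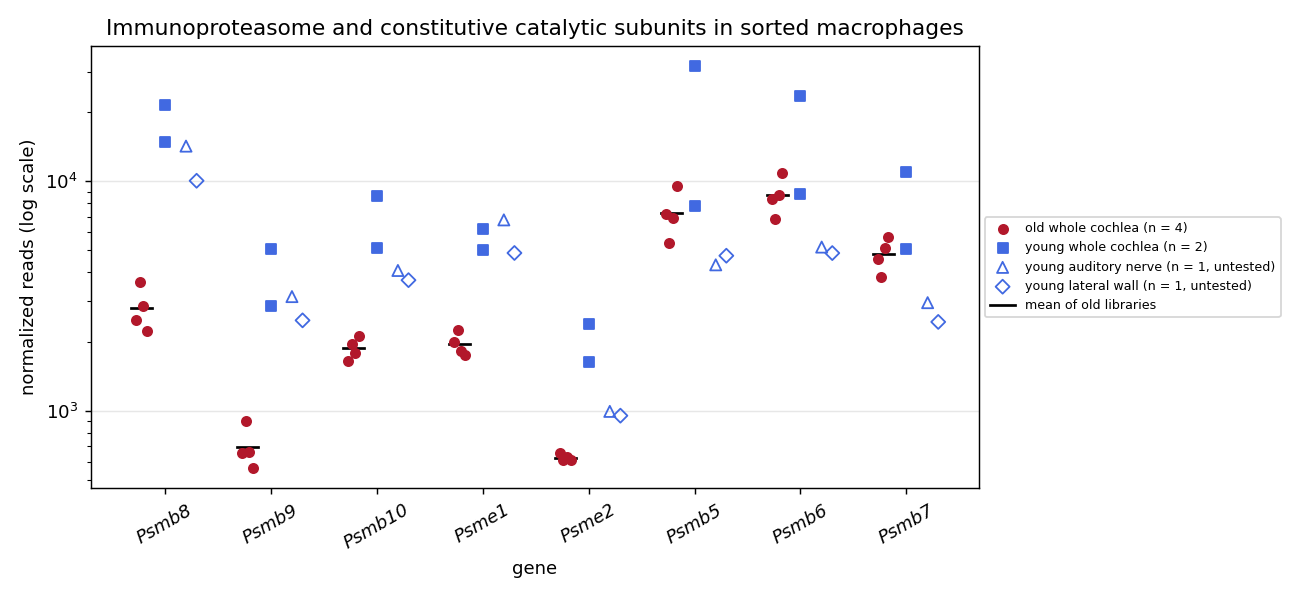
Normalized reads per library (log axis) of the interferon-inducible proteasome genes and of the standard subunits Psmb5, Psmb6 and Psmb7, with red circles for the 4 old libraries, blue squares for the 2 young whole-cochlea libraries, an open triangle for the young nerve, an open diamond for the young lateral wall and a bar at the old mean. For the 5 inducible genes all young symbols lie above all old ones, and for Psmb5, Psmb6 and Psmb7 the nerve and wall symbols lie below the old ones.

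Of the 17 genes of MHC class I and peptide loading, 5 fell in old macrophages and none rose, and all 5 lay below the 4 young macrophage libraries. B2m (chromosome 2, 122147686 to 122153083), which encodes the light chain shared by all class I molecules, stood at 60455, 67269.7, 58080.2 and 48869 normalized reads in old and 211034 and 162953 in young libraries. The wall library, at 81884, came nearest to the old ones, and the nerve stood at 177491 (log2 difference -1.67, SE 0.48, adjusted p = 0.021, and 0.11 without young replicate 9). H2-K1, a classical heavy chain, stood at 12723, 15882, 13202 and 11496 and 35330.3 and 38756, with 44985 and 37193 in nerve and wall, so the 4 young values were close to each other and 2 to 4 times the old ones (log2 difference -1.48, adjusted p = 0.0038). H2-D1 and H2-T23, a further classical and a nonclassical heavy chain, gave log2 differences of -1.52 and -1.60 (adjusted p = 0.0018 and 0.0042). Heavy chain genes are near copies of each other, and reads could have been shared between them. Pdia3, a chaperone of the loading complex, had the smallest difference of the 5 (-0.75, SE 0.20, adjusted p = 0.016, and 0.15 without young replicate 15). The list's median was -0.47, against -1.28 for the macrophage core list described further on. Of the 5, 4 were lower by quantile normalization, 5 by edgeR, 4 without either young replicate and 3 without old replicates 12 and 17. The transporter genes Tap1 and Tap2 and the regulator Nlrc5 were among the 12 members that did not pass.

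Of 30 interferon-stimulated genes 8 fell and 2 rose. Bst2, which encodes tetherin, a protein that holds budding virus at the cell surface, stood at 2988, 3865, 2624 and 2534 normalized reads in old libraries and at 23006 and 14651 in young ones. The young mean was 6.27 times the old, and nerve and wall stood between (11515 and 9327; log2 difference -2.63, SE 0.51, adjusted p = 0.0023). Xaf1, a pro-apoptotic interferon target, stood at 729, 991, 560.3 and 814 against 5206 and 3308 (log2 difference -2.45, adjusted p = 0.0027). Irf9, which binds DNA within the interferon-activated complex ISGF3, stood at 1323, 2233, 1687 and 1673 and 5073 and 5326, with 7775 and 4174 in nerve and wall. It fell in macrophages (log2 difference -1.61, SE 0.29, adjusted p = 0.0014) and had an age difference of -0.01 in GFP-negative cells, and the interaction passed (-1.61, adjusted p = 0.017). Oas1a, a sensor of double-stranded RNA, and Ifi35 fell too (log2 differences -2.19 and -1.35, adjusted p = 0.011 and 0.0053; Oas1a 0.054 without young replicate 9), and so did Ifitm3, named after its values were seen (4817 to 10039.8 normalized reads in old, 33989 and 38675 in young libraries).

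The genes most often used to read an interferon response did not pass the test. Isg15 stood at 260.4, 1166, 218 and 626 in old libraries and 2189 and 1191 in young ones, so old replicate 7 was near young replicate 15 and above the wall (498; adjusted p = 0.093). Ifit3 stood at 1853, 5762, 1137 and 2353 and 7021 and 7579 (log2 difference -1.66, adjusted p = 0.11). The old libraries differed among themselves here, with replicate 7 highest for Isg15, Ifit3 and Oas1a. Oas2, a paralogue of Oas1a, rose with 237, 781, 559 and 395 against 0 and 71.1 normalized reads, and the nerve library (1719.8) lay above all 4 old ones. Its log2 difference of 5.73 (adjusted p = 0.0072) was 2.64 without young replicate 9 (adjusted p = 0.099). The list's median was -1.12. Of the 8 lower genes 7 lay below all 4 young libraries, 8 were lower by quantile normalization, by edgeR, with the length trend removed and without young replicate 15, 5 without young replicate 9 and 4 without old replicates 12 and 17.

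**Figure D3:**
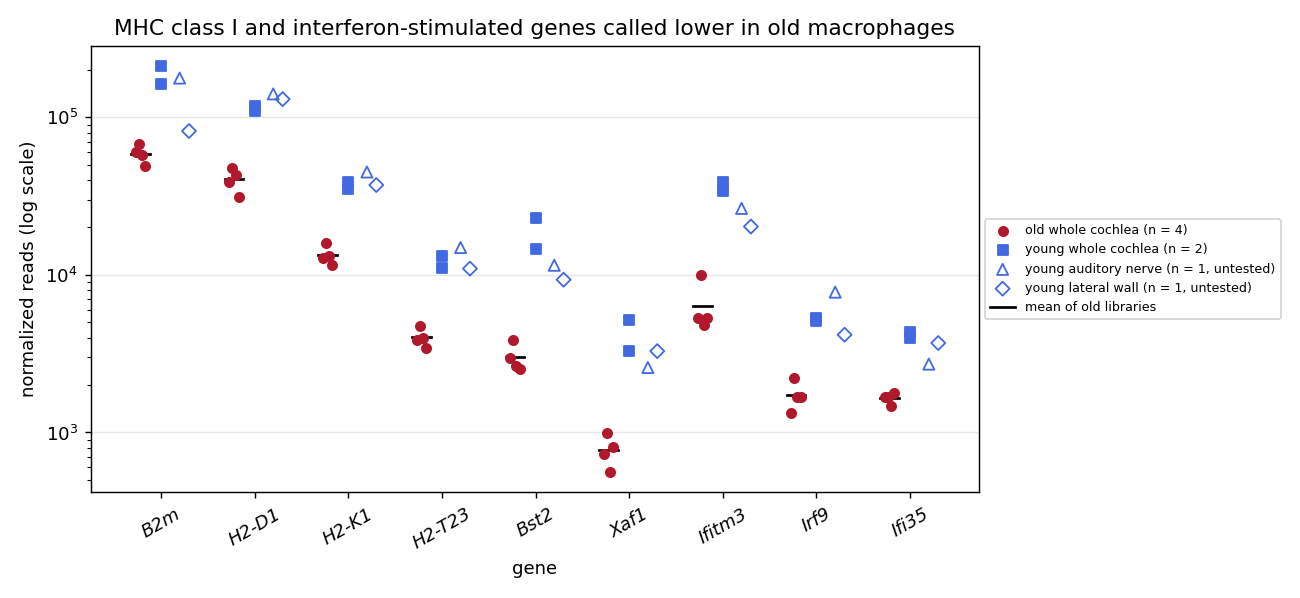
Normalized reads per library (log axis) of 4 MHC class I genes and 5 interferon-stimulated genes, with symbols as for the proteasome genes. The old red circles lie below the young symbols for the genes shown, with B2m in the wall (81884) and Ifi35 in the nerve (2716) the young values closest to the old ones.

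Promoters of genes that fell are shown because several hold the letters of interferon response sites, which is a description of the sequence and says nothing of binding in these cells. RefSeq windows of GRCm38.p6 from 250 bases before to 50 after the transcription start were searched on both strands for the core of the interferon-stimulated response element, here 2 copies of GAAA parted by any 2 bases, and for TTCNNNGAA, the gamma-activated site, which reads the same on either strand. The response element was found in 1079 of 27025 promoters (3.99%; 3.73% of the 13983 whose gene was tested) and TTCNNNGAA in 2582 (9.55%; 8.53%). The response element was in 1 of 5 lower immunoproteasome genes, 2 of 5 lower MHC class I genes and 3 of 7 lower interferon-stimulated genes with a promoter in the table. Among members that were not lower it was in 0 of 3, 2 of 9 and 13 of 17, the last with Isg15 and Ifit3 among them. TTCNNNGAA was in 1 of 5 lower and 0 of 3 other immunoproteasome genes, in 0 of 5 and 1 of 9 of MHC class I, and in 4 of 7 and 2 of 17 of the interferon-stimulated genes. Below are 270 bases for each of 4 genes, 250 before to 20 after the start, 5′ to 3′ on the strand of the gene, with the match in capitals. B2m (chr2:122147437-122147706, + strand) has the response element with its first base at position -139 from the start. Psme1 (chr14:55578244-55578513, + strand) has it on the opposite strand at position 10. Bst2 (chr8:71537453-71537722, - strand) has 2 overlapping matches at positions -130 and -124. Psmb8 (chr17:34197945-34198214, + strand) has TTCNNNGAA at position -97.
B2m: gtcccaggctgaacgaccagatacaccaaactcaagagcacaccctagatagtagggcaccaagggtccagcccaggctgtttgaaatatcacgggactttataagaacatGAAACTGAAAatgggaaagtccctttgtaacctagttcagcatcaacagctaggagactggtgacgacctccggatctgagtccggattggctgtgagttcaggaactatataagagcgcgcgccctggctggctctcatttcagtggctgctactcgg
Psme1: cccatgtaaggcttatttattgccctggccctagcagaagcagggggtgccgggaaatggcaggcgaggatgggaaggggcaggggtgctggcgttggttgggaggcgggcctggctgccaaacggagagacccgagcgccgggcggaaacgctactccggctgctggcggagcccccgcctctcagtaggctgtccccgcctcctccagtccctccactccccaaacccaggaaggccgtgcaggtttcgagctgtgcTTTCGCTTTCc
Bst2: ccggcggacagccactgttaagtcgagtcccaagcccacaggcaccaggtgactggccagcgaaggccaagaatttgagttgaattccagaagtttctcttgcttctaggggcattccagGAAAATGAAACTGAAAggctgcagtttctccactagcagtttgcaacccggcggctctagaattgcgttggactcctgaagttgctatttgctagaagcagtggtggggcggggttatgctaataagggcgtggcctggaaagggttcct
Psmb8: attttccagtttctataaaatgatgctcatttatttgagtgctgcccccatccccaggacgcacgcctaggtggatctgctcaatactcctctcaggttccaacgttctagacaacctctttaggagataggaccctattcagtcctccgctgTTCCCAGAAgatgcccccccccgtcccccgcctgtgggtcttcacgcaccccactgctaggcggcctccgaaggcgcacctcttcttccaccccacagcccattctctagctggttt

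Lysosomal genes fell in part. Of 14 cathepsin genes 6 fell and 1 rose around a median of -1.17, and of 31 other lysosomal hydrolase and membrane genes 9 fell and 1 rose around a median of -0.57. The macrophage core list, described further on, had a median of -1.28 and was lower in sum in old libraries too. Whether the lysosomal genes fell beyond that list was not tested. Ctsh, an aminopeptidase, stood at 10905, 13857, 13164 and 7406 normalized reads in old and 48444 and 59628 in young libraries, with 53887 and 32122 in nerve and wall, and every young value was more than 2 times every old one (log2 difference -2.29, SE 0.30, adjusted p = 0.00012). Ctsz, a carboxypeptidase, stood at 24792, 31490.0, 26909.5 and 16894 and 56113 and 67819 (log2 difference -1.34, SE 0.27, adjusted p = 0.0032). Old replicate 17 was the lowest of the old libraries for both. Lgmn, the asparagine endopeptidase that activates other cathepsins, and Ctsc, which activates granule proteases, gave -1.43 and -1.37 (adjusted p = 0.0028 and 0.026). Ctsc was -0.57 without young replicate 15 and then did not pass (adjusted p = 0.28). Ctsa, a partner of beta-galactosidase, had a young mean 2.08 times the old (adjusted p = 0.018, and 0.18 without young replicate 15). The other cathepsin that fell, Ctsw, is a gene of cytotoxic lymphocytes and stood at 2.57 to 16.9 in old libraries, 671 and 614 in young ones and 23.1 and 59.7 in nerve and wall.

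Among the hydrolases, Hexa, a subunit of beta-hexosaminidase, stood at 15027, 16292, 16263 and 11154 normalized reads in old and 33807 and 45888 in young libraries, 62345 in the nerve and 28861 in the wall (log2 difference -1.44, SE 0.23, adjusted p = 0.00049). Its age difference was -0.11 in GFP-negative cells, and the interaction passed (-1.33, adjusted p = 0.012). Fuca1, a fucosidase, was the most even of the group, with 6716, 5608, 5315 and 5268 against 11994 and 10522 and 11277 and 8880.1 in nerve and wall, so the ages stood apart by less than 2-fold at their nearest (log2 difference -0.98, adjusted p = 0.003). Npc2, which carries cholesterol out of the lysosome, and Grn, the progranulin gene, gave -1.21 and -1.49 (adjusted p = 0.0046 and 0.012). Grn did not pass without young replicate 15 (-0.71, adjusted p = 0.14). Gla, alpha-galactosidase, was the 1 gene called higher, with 0 reads in young replicate 9, 343 in young replicate 15 and 622 to 1222 in old libraries, a range that held the nerve value (1049). Lamp1, the main lysosomal membrane protein, and Cd68 did not pass (log2 differences -0.57 and -1.85, adjusted p = 0.2 and 0.3). Cd68 nevertheless stood at 8137.8 to 16291.5 normalized reads in old libraries, against 37873.7 and 56731.6 in young ones. Nerve and wall stood at 51740.6 and 32109.6, so the ages did not overlap, and the SE of its difference was 1.32. A fit of the macrophage libraries alone called Cd68 lower, while quantile normalization and edgeR did not. With the length trend removed Lamp1 was -1.18 and called lower (limma adjusted p = 0.0041), and Cd68 was not called.

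The lysosomal calls depended on the scaling. Quantile normalization kept 2 of the 6 cathepsins and 2 of the 9 hydrolase genes, and edgeR kept 6 and 7. Without young replicate 9 the counts kept were 5 and 8, without young replicate 15 they were 4 and 3, and without old replicates 12 and 17 they were 3 and 3. All 15 lay below the 4 young macrophage libraries in the 4 old ones.

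Of 7 receptor genes for antibody 2 fell. Fcgrt (chromosome 7, 45092990 to 45103851), which encodes the neonatal Fc receptor that rescues IgG from lysosomes, stood at 3520.5, 3451, 3971 and 3927 normalized reads in old and 13509 and 22183 in young libraries. The nerve and wall stood at 18073 and 12658, so the young libraries ranged over less than 2-fold and all exceeded 3 times each old value (log2 difference -2.22, SE 0.23, adjusted p = 1.6e-05). The interaction with the sort passed (-1.69, SE 0.30, adjusted p = 0.0029). Fcgr3, an activating receptor for IgG complexes, stood at 14023, 19469, 18499.5 and 10839 against 51883 and 71400.0 (log2 difference -1.99, SE 0.37, adjusted p = 0.0017; interaction -2.19, adjusted p = 0.011). None of the 7 rose, and their median was -1.99, against -1.28 for the macrophage core list described further on. Fcgrt and Fcgr3 stayed lower by quantile normalization, by edgeR, without either young replicate and without old replicates 12 and 17. The inhibitory receptor Fcgr2b and the signalling chain Fcer1g did not pass.

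**Figure D4:**
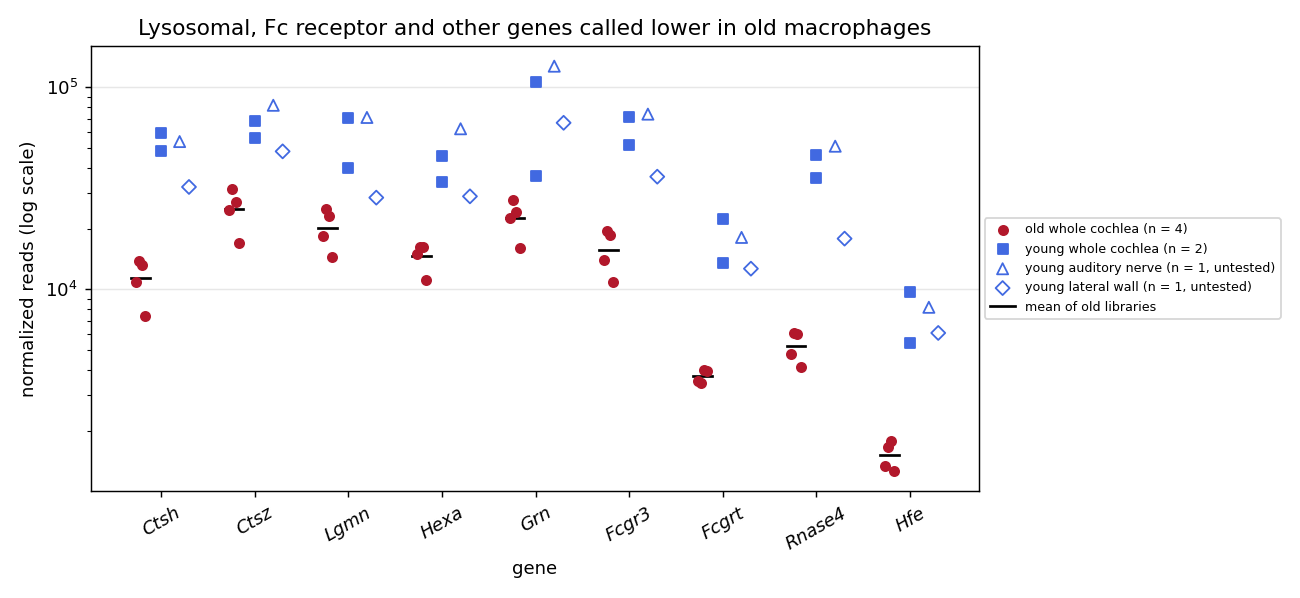
Normalized reads per library (log axis) of 5 lysosomal genes, the receptors Fcgr3 and Fcgrt, and Rnase4 and Hfe, with symbols as for the proteasome genes. Red circles lie below every young symbol for each gene, for example with 4135 to 6080 normalized reads of Rnase4 in old and 17826 to 51111 in young libraries.

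Among abundant genes, those with a group mean of at least 1000 at both ages, Rnase4 had the smallest adjusted p of those that fell. Rnase4 (chromosome 14, 51091077 to 51106151), a secreted ribonuclease that shares its first exons with Ang so that reads of the pair can be mixed, stood at 4787, 6079.9, 6017 and 4135 normalized reads in old and 35697 and 46409.7 in young libraries. The nerve was higher than both young whole-cochlea libraries (51111) and the wall lower (17826), and all 4 exceeded every old value (log2 difference -2.97, SE 0.23, adjusted p = 1.1e-06). Next came Fcgrt and then Ginm1, an integral membrane glycoprotein gene, which stood at 1621, 1782, 1463 and 1726 and 8404 and 4965 (log2 difference -1.97, adjusted p = 3.8e-05). Hfe, the iron-sensing partner of the transferrin receptor, whose product is built like a class I heavy chain and binds B2m protein, stood at 1342, 1658, 1769 and 1262 against 5415 and 9755. The wall held 6083 and the nerve 8151 (log2 difference -2.28, SE 0.27, adjusted p = 4.1e-05). Its age difference in GFP-negative cells was 0.10 and the interaction -2.39 (adjusted p = 0.00056). Lpar6, a receptor for lysophosphatidic acid, and Clic1, a chloride intracellular channel protein, fell by 2.16 and fell by 1.90 on the log2 scale (adjusted p = 4.5e-05 and 8.8e-05). For all 6 genes the difference kept its call without either young replicate and with the length trend removed.

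Of the 6 abundant genes with the smallest adjusted p among those that rose, the 5 given here were not called after the length trend was removed. That fit has the limit given above, and the part of length in these rises was not tested. Ahcyl2, related to S-adenosylhomocysteine hydrolase, stood at 8726, 9320.4, 7741 and 6678 normalized reads in old and 1639 and 1039.8 in young libraries, with 5129.6 and 3224 in nerve and wall (log2 difference 2.62, SE 0.23, adjusted p = 3.8e-06, and 0.51 with the length trend removed). Trim2, a ubiquitin ligase, differed by 1.87 before and -0.38 after removal. Slc38a2, an amino acid transporter, gave 2.04 and 0.01, and Dkk3, a secreted relative of Wnt inhibitors, 1.83 and 0.32. Hdlbp, an RNA-binding protein gene, gave 2.09 and -0.12, and its nerve and wall values (7191 and 7318) lay above the old ones (3164 to 5266).

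The largest rises were of genes with few or no reads in both young libraries of the whole cochlea. Pkia, which encodes an inhibitor of protein kinase A, stood at 2432, 1793, 2118 and 3059 normalized reads in old libraries, 0 in both young ones, 289 in the nerve and 470.2 in the wall. Its old mean was 543-fold higher than 3 reads per young library would give, a floor that covers counting error only (adjusted p = 1.9e-08). Among genes with at least 20 normalized reads in all 6 libraries, Aebp1, an enhancer-binding protein gene of connective tissue, had the largest rise of those named here (6599.7, 5377, 5068 and 4774 against 40.4 and 382; log2 difference 5.43, adjusted p = 7.4e-05). Snhg11 and Meg3, noncoding RNAs abundant in neurons, stood at 6753 to 22463 and 5849 to 25235 in old libraries. In young replicate 9 they stood at 958 and 1388, and in young replicate 15 at 177 and 183. In the wall they stood at 1.53 and 0. Col9a3, a cartilage collagen chain also found in the inner ear, Drp2, of myelinating Schwann cells, and Slc17a7, a vesicular glutamate transporter, rose by 4.96, 4.33 and 4.47 (adjusted p = 0.00083, 8.0e-05 and 0.016). Slc17a7 was 1.92 and not called without young replicate 15, and 3.25 and not called with the length trend removed (adjusted p = 0.089). Spon1, an extracellular matrix protein gene, Arhgap20 and Rexo1 rose by 4.53, 4.39 and 4.61, while the wall library lay above every old one for Spon1 (4261) and Arhgap20 (1354), and the nerve for Rexo1 (1411). Abca2, a lipid transporter of myelinating cells, and Fam20c, a kinase of secreted proteins, rose by 4.32 and 4.31. Their differences were 2.04 and 0.80 without young replicate 9, and Fam20c then did not pass (adjusted p = 0.12).

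The largest falls among genes with at least 20 normalized reads in all 6 libraries were spread over several kinds of gene. Gja4, a connexin of arterial endothelium, stood at 76.5 to 130.1 in old and 1336 and 2069 in young libraries, but at 57.8 in the nerve, below all old values (log2 difference -4.04, adjusted p = 0.00052). Pglyrp1, which binds bacterial peptidoglycan, stood at 23.7, 66.4, 24.9 and 64.6 against 648 and 785, and Car9, a carbonic anhydrase induced by low oxygen, at 23.7, 34.3, 40.5 and 28.7 against 741 and 292 (-4.12 and -3.86, adjusted p = 0.0045 and 0.011). The wall held only 4.59 normalized reads of Car9, which did not pass without young replicate 9 (adjusted p = 0.082). Lbx2, a homeobox gene, stood at 407 and 384 in the young whole-cochlea libraries and at 20.7 to 29 in old ones, with 21.5 and 0 in nerve and wall. Gimap9, a GTPase gene of lymphocytes and endothelium, fell by 3.76 on the log2 scale (adjusted p = 0.0019), and its nerve value (41.3) lay within the old range (30.9 to 62.6). Hist1h2ao, a replication-dependent histone with near-identical copies, stood at 32.1, 45.2, 188 and 81.1 against 1019.8 and 972, and the histone values of nerve and wall were 968 and 3048.

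Genes of cell division fell in part, among them Gins2 and Cenpa, which the same rule on size had named. Gins2, a subunit of the replicative helicase, stood at 114, 101, 139 and 78 normalized reads in old and 2903 and 818 in young libraries, with 613 and 858 in nerve and wall (log2 difference -3.85, SE 0.61, adjusted p = 0.0005). Its lowest young value was more than 4 times its highest old one, and the interaction passed (-3.64, adjusted p = 0.01). Cenpa, the histone variant of centromeres, stood at 126, 118, 164 and 113 and 3493 and 926 (log2 difference -3.80, adjusted p = 0.004). Of 22 cell cycle genes on a separate list 5 fell and 3 rose. Cdk1, the kinase that drives entry into mitosis, stood at 106, 113, 167 and 81.1 against 1204 and 1215, and at 843 and 1951 in nerve and wall (log2 difference -3.41, SE 0.94, adjusted p = 0.017). Mcm5, of the helicase ring, varied over 6-fold among old libraries (99.4, 617, 338 and 298) and stood at 1404 and 3773 in young ones (-3.03, adjusted p = 0.01). Pcna, the sliding clamp of DNA polymerase, had a smaller and more even difference (1638, 1667, 1892 and 1624 against 3561 and 3779.7; -1.11, adjusted p = 0.012), and Birc5, survivin, fell by 2.87 on the log2 scale (adjusted p = 0.027). The fifth was Tyms, which makes thymidylate for DNA synthesis. All 5 lay below the 4 young libraries, and all 5 were kept by quantile normalization, by edgeR and with the length trend removed. Without young replicate 9 3 of them were kept, with adjusted p = 0.053 for Cdk1 and 0.29 for Tyms, and without old replicates 12 and 17 2. Birc5 did not pass without young replicate 15 (adjusted p = 0.071).

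The 3 cell cycle genes called higher went the other way in the single libraries. Mki67, the proliferation antigen Ki-67, stood at 72.5, 95.8, 30.9 and 79.9 normalized reads in old libraries and at 0 in both young whole-cochlea libraries, but at 1047 in the nerve and 1529 in the wall. Cenpe, a kinetochore motor, stood at 28 to 53.2 in old libraries, 0 in both young ones and 236 and 1178 in nerve and wall. Their log2 differences were 6.03 and 5.21 (adjusted p = 0.005 and 0.016) before the length trend was removed and 3.73 and 2.95 after it (adjusted p = 0.04 and 0.12). Aurkb was the third, and was 4.70 and not called after it (adjusted p = 0.052). Neither Cenpe nor Aurkb passed without young replicate 9 (adjusted p = 0.059 and 0.077). The list's median was 1.50, and 7 of its members were lower by quantile normalization with 0 higher.

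**Figure D5:**
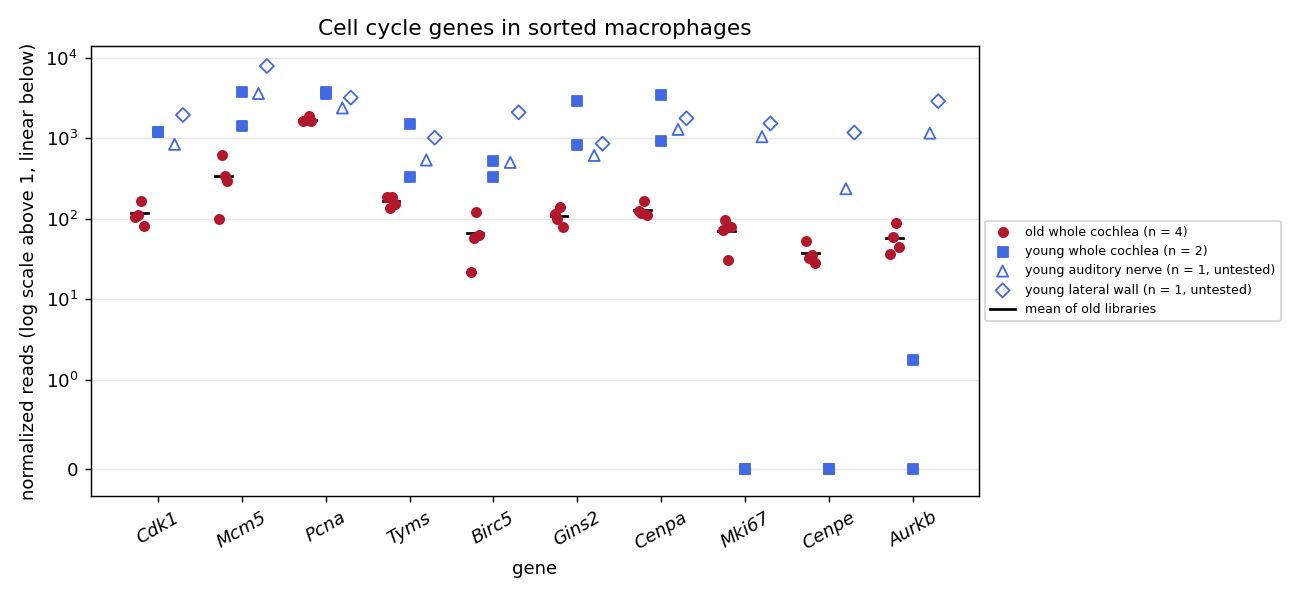
Normalized reads per library of 10 genes of cell division (axis linear up to 1 and log above it, so that 0 can be shown), with symbols as for the proteasome genes. For Cdk1, Mcm5, Pcna, Tyms, Birc5, Gins2 and Cenpa the red circles lie below every young symbol, and for Mki67 and Cenpe both blue squares are at 0 while the nerve and wall symbols lie above the red circles.

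On the list of senescence and DNA damage, 8 of 20 genes rose and 3 fell. Cdkn2a, the locus of p16 and p19Arf, was detected in all 4 old libraries and in none of the 4 young ones, at a low level of 12.8, 4.9, 3.23 and 6.71 normalized reads. A count of 0 in the young libraries allows up to 5.27 normalized reads in replicate 9 and 3.39 in replicate 15, and the values of old replicates 7 and 12 lay below the first of these limits. The fitted log2 difference was 2.84 (adjusted p = 0.00099), and -0.19 by quantile normalization. Cdkn2a was not called by quantile normalization or by edgeR (edgeR adjusted p = 0.089). Trp53, the tumour suppressor p53, fell, from 3533 and 3114 to 971, 1250.5, 836 and 849 (log2 difference -1.78, SE 0.30, adjusted p = 0.00075). Lmnb1, a nuclear lamina gene whose loss marks senescent cells, was higher (162, 375, 409 and 189.6 against 8.78 and 0), although nerve and wall (603 and 1421) exceeded all old values. Gadd45b, a stress-induced gene, stood at 2026 to 2395 against 730.2 and 383, with the nerve (2346) inside the old range (log2 difference 2.03, adjusted p = 0.0013). Igfbp7, a secreted protein of vessels, fell by 3.51 on the log2 scale (adjusted p = 0.00012), and the nerve value (1221) lay within the old range (1109.5 to 2741). By quantile normalization 3 genes of the list were higher and 3 lower. Without young replicate 9 6 of the 8 and 2 of the 3 were kept, and without old replicates 12 and 17 5 and 2.

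Chemokine and cytokine genes changed singly. Cxcl13 (chromosome 5, 95956951 to 95961068), the chemokine that draws B cells into follicles, stood at 1266, 969, 1558 and 418 normalized reads in old libraries and had no reads in the 2 young ones, against 85.9 in the nerve and 76.6 in the wall. Even the lowest old value was more than 4 times the highest young one (log2 difference 9.89, SE 0.83, adjusted p = 2.4e-06). The old mean was 243-fold higher than 3 reads per young library would give, a floor that covers counting error only. The age difference was 0.87 in GFP-negative cells and the interaction 9.02 (adjusted p = 0.00012). It kept its call without either young replicate, with the length trend removed, by quantile normalization and by edgeR (adjusted p = 8.4e-05 and 0.00016). Cxcl12, which holds leukocytes through CXCR4, fell, with 927, 1450.2, 1285 and 908 against 4852 and 4326 and 2807 and 5754 in nerve and wall (-2.03, adjusted p = 0.00057). Cxcl3 was the other of 11 CXC genes to rise (9.75 to 64.2 in old libraries, 0 in young ones, 62.8 in the nerve). Of 17 inflammatory cytokine genes 4 were called higher and 1 lower around a median of 1.48, shares near those of all tested genes (24.1% and 5.57%). Il10, which restrains macrophages, stood at 118, 56, 123 and 15.9 in old libraries and 0 in both young whole-cochlea libraries, yet at 317 and 110.3 in nerve and wall (5.94, adjusted p = 5.0e-05). Il12b, the shared p40 chain of interleukins 12 and 23, had no reads in any of the 4 young libraries and 155, 15.2, 159.9 and 21.9 normalized reads in old ones, a spread of 10-fold (5.79, adjusted p = 0.014, and 0.054 without young replicate 9). Il1rn, the interleukin 1 receptor antagonist, and Il6 rose by 6.03 and 4.67 (adjusted p = 0.015 and 0.023), with nerve values of 558 and 117. Il1rn did not pass without young replicate 15 (3.95, adjusted p = 0.11) nor Il6 without young replicate 9 or 15 (adjusted p = 0.081 and 0.051). By edgeR, Il12b, Il1rn, Il6 and Cxcl3 were not called (adjusted p = 0.15, 0.088, 0.055 and 0.063). Quantile normalization did not call them either (adjusted p = 0.16, 0.2, 0.36 and 0.27), while Il10 was called higher by both. Without old replicates 12 and 17, 1 of the 4 higher cytokine genes was kept, and all 3 CXC calls.

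The inflammasome list held changes both ways. Pycard, the ASC adaptor that joins sensors to caspase 1, stood at 1029, 1357, 946 and 759 normalized reads in old and 6017 and 3486 in young libraries, 4169.8 in the nerve and 2418 in the wall, without overlap (log2 difference -2.19, SE 0.39, adjusted p = 0.0011; interaction -2.24, adjusted p = 0.013). Ninj1, which ruptures the membrane late in pyroptosis, stood at 3114, 3256, 3679 and 2908 against 12863 and 8861, and the wall came nearest to the old values (6123; log2 difference -1.73, adjusted p = 0.00033). Il18, the cytokine that the inflammasome releases, fell by 2.03 on the log2 scale (adjusted p = 0.046, and 0.12 without young replicate 9, 0.054 without young replicate 15 and 0.15 with the length trend removed, at -1.43). The sensors Nlrp3, Nlrp1b and Naip6 rose by 4.93, 3.68 and 4.61 (adjusted p = 0.045, 0.039 and 0.0056). Nlrp3 stood at 471, 714, 861 and 779 against 1.76 and 185 and at 1383 in the nerve, and the nerve or both single libraries exceeded the old values of all 3 sensors. They were, without young replicate 9, 1.89, 1.60 and 3.10 and did not pass (adjusted p = 0.49, 0.44 and 0.084). None of the 3 passed by quantile normalization, by edgeR or with the length trend removed (3.10, 1.81 and 2.38). Of the 3 lower genes, 2 were kept without young replicate 9 and 2 without old replicates 12 and 17. Casp1 and Gsdmd did not pass.

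For bacterial sensing, Tlr4, its partner Ly96 (MD-2) and the related Ly86 (MD-1) fell among 15 measured genes and none rose. Ly96 stood at 414, 422, 423 and 472 normalized reads in old and 3344 and 2191 in young libraries (log2 difference -2.64, adjusted p = 0.016), Ly86 at 6305, 9435, 6913 and 4632 against 49769 and 39405 (-2.74, adjusted p = 0.029) and Tlr4 at 1923, 1704, 1951 and 1140.1 against 2998 and 5698 (-1.33, adjusted p = 0.035). For all 3, the old libraries lay below the nerve and wall as well, and without old replicates 12 and 17 0 of the 3 was kept. Ly96 and Ly86 did not pass without young replicate 9 (adjusted p = 0.076 and 0.1), and without young replicate 15 Tlr4 did not (0.17). With the length trend removed Ly86 was -2.37 and just missed the threshold (adjusted p = 0.05). Downstream, 6 of 22 NF-kappaB pathway genes were called higher, a share near the 24.1% of all tested genes. Tnfaip3, the feedback inhibitor A20, stood at 9799, 9089, 9123 and 7502 against 42.1 and 1278 and at 10102 in the nerve (log2 difference 5.23, adjusted p = 0.031), and did not pass without young replicate 9 (2.79, adjusted p = 0.31). Chuk, a kinase of the pathway, stood at 1278, 1401, 1458 and 1586 against 0 in young replicate 9 and 1356 in young replicate 15, the latter within the old range, and its log2 difference of 5.28 became 0.07 without young replicate 9. Map3k7, Traf6, Irak1 and Tnip1 were the others, with log2 differences of 3.04, 2.20, 0.68 and 1.62, of which Map3k7, Traf6 and Tnip1 came to 0.89, 0.83 and 0.76 without young replicate 9. Only Irak1 of the 6 was then called, and it did not pass without young replicate 15 (adjusted p = 0.15). None of the 6 was higher by edgeR or without old replicates 12 and 17. With the length trend removed none passed either, with 3.27 for Tnfaip3, 3.69 for Chuk, 0.86 for Map3k7, -1.06 for Irak1, 0.36 for Tnip1 and about 0 for Traf6.

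The complement list had 2 higher and 3 lower of 20. C3, the central component, stood at 839.7, 1879, 1060.2 and 485 normalized reads in old libraries and 1.76 and 12.4 in young ones, but at 3088 and 7073 in nerve and wall, above all old values (log2 difference 7.29, adjusted p = 0.0089, and 0.061 without young replicate 9). Cfp, properdin, which stabilizes the alternative convertase, fell by 2.32 on the log2 scale, and Serping1, the C1 inhibitor, by 1.06 (adjusted p = 0.045 and 0.035, and 0.14 and 0.21 without young replicate 15). C1qc, a chain of C1q, stood at 48235, 64909.6, 58270.5 and 38497 against 165314 and 207482, and its interaction with the sort passed (-2.67, adjusted p = 0.011). Its age difference in GFP-negative cells was 0.83. Without old replicates 12 and 17 both higher calls of the list were kept and 0 of the 3 lower ones. The wall value of C1qc (61977) lay within the old range.

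General macrophage markers lay lower in sum without many calls. Of 20 core genes 2 fell, C1qc and Tyrobp, and the median of the list was -1.28. The summed level of the core list was 351405 to 603213 normalized reads in old libraries, 1503200 and 1634640 in the young ones, 2138990 in the nerve and 1229680 in the wall. Neither call was kept by quantile normalization or without old replicates 12 and 17. The fit of the 6 macrophage libraries alone called 9 of the 20 lower, and the fit with the length trend removed 6. Of 10 microglia-type genes 5 fell (median -1.77; 3 by quantile normalization, 5 by edgeR, 2 without old replicates 12 and 17). Olfml3, of this list, stood at 5935, 8941, 6599 and 4405 against 14462 and 31598 (-1.77, adjusted p = 0.0099, and 0.072 without young replicate 15), and P2ry12, the receptor for ADP, at 6271, 6658, 5908 and 5162 against 15692 and 30836 and did not pass (-1.88, adjusted p = 0.067). Of 14 resident perivascular-type genes 3 fell (median -2.12; 0 of the 3 kept without old replicates 12 and 17, 1 without young replicate 9 and 1 without young replicate 15), and the mannose receptor Mrc1 was not called (5487, 6190.4, 6545 and 6717 against 7592 and 15205; -0.79, adjusted p = 0.34). With the length trend removed Mrc1 was -2.93 and called lower (limma adjusted p = 0.0036). Of 13 MHC class II genes, H2-DMa and Ifi30, a thiol reductase of the endosome, fell (-2.13 and -1.69, adjusted p = 0.0076 and 0.034). Ifi30 did not pass without young replicate 15 (adjusted p = 0.12), and without old replicates 12 and 17 1 of the 2 was kept. Cd74, the invariant chain, stood at 64941, 80229, 105527 and 88841 against 127818 and 183276, with the wall (89181) inside the old range (adjusted p = 0.48).

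Genes of lipid-laden macrophages also split. Gpnmb, a transmembrane protein of lysosome-rich macrophages, stood at 49606, 41430.2, 38282 and 18942 normalized reads in old libraries and 7047 and 14879.5 in young ones, while the nerve held 776 and the wall 27890.1 (log2 difference 1.77, SE 0.52, adjusted p = 0.022). Lpl, lipoprotein lipase, stood at 7126, 6299.8, 8016 and 1845 against 1058 and 2038, with old replicate 17 below young replicate 15 and the wall (8989) above all (1.79, adjusted p = 0.038). Both lost their calls without young replicate 9 (adjusted p = 0.19 and 0.21), and with the length trend removed they stood at 0.08 and -0.07. Itgax, CD11c, rose by 7.35 (adjusted p = 0.01), and the nerve held 1155 against 518 to 1661 in old libraries. It too lost its call without young replicate 9 (4.61, adjusted p = 0.12), and edgeR did not call it (adjusted p = 0.095). Apoe, the lipid carrier, fell, with 660562, 786725, 852809 and 455382 against 2080000.0 and 947719 (-1.07, adjusted p = 0.027, and 0.36 without young replicate 9), and Tyrobp, the adaptor of TREM2, by 2.91 (adjusted p = 0.04, 0.18 without young replicate 9, and 0.08 with the length trend removed, at -1.95). The other 13 of 18 genes, Trem2 and Spp1 among them, did not pass. Without old replicates 12 and 17 the 3 higher calls were kept and 0 of the 2 lower ones.

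In the cholesterol list 5 of 20 genes were called higher and 1 lower around a median of 0.82, near the 24.1%, 5.57% and median of 0.88 of all tested genes. Hmgcs1, an early enzyme of the pathway, stood at 7961, 7840.3, 8593 and 15847 normalized reads in old libraries and 3419 and 4083 in young ones (log2 difference 1.36, adjusted p = 0.014, and 0.075 without young replicate 9). Insig1, which holds back the pathway's transcription factor, rose by 1.05. With the length trend removed Hmgcs1 and Insig1 were -0.21 and 0.01. Hsd17b7 had 0 reads in young replicate 9, and its log2 difference of 5.56 was 0.77 without that library (adjusted p = 0.25) and 3.54 with the length trend removed (adjusted p = 0.064). It was not called by edgeR (adjusted p = 0.28). Nsdhl fell (-0.79, adjusted p = 0.047), and did not pass without young replicate 9 or 15 (adjusted p = 0.15 and 0.055). With the length trend removed 1 of the 20 genes was higher and 6 lower, and without old replicates 12 and 17 1 of the 5 higher calls was kept.

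Of 14 iron genes 2 fell and 2 rose. Hfe and the ferritin light chain Ftl1 fell, the latter with 109507, 102643, 124258 and 79852 against 308035 and 245281 (-1.42, adjusted p = 0.026, and 0.13 without young replicate 9). Tfrc, the transferrin receptor, stood at 7435, 7724, 7583 and 6275 against 3411 and 4116, and at 1999 and 1075 in nerve and wall (0.95, adjusted p = 0.015, and 0.082 without young replicate 9). Ireb2, which senses iron, stood at 1.76 in young replicate 9 and 529 in young replicate 15, against 849.7 to 1187 in old libraries. Its log2 difference of 4.68 (adjusted p = 0.022) was 0.89 without young replicate 9 (adjusted p = 0.26), and edgeR did not call it (adjusted p = 0.24). With the length trend removed Tfrc was -1.13 and called lower (adjusted p = 0.024), and Ireb2 was 2.50 and did not pass. Of the 4 iron calls 1 was kept without old replicates 12 and 17.

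Markers of other cells moved with age in the same sort, and their part in the differences above was not tested. Lymphocyte genes were lower. Of 20 genes that mark T cells or NK cells 7 were called lower and none higher (median -2.41). Their summed level was 854 to 1708 normalized reads in old libraries, 19564 and 6208 in young ones, 5485 in the nerve and 8568 in the wall. All 7 were kept with the length trend removed, and 4 without young replicate 9 or without old replicates 12 and 17. Gzma, a granzyme of killer cells, had no reads in old replicates 1, 7 and 12 and 0 to 28.7 over the old group, against 4269 and 418, 757 and 303 (log2 difference -9.16, adjusted p = 0.0018). Ccl5, a chemokine of the same cells, stood at 139, 174, 34.1 and 229.8 against 6449 and 783 and was not called without young replicate 9 (-2.72, adjusted p = 0.12). B cell and plasma cell genes (10 measured) and neutrophil genes (14 measured) had no calls by limma.

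In sum, vessel genes were lower than in the whole-cochlea libraries of young mice and in the wall, but not than in the nerve. Single genes differed in this. Of the lower calls, 2 endothelial and 2 pericyte and smooth muscle genes lay below all 4 young macrophage libraries, nerve included. Of 16 endothelial genes 7 fell, with sums of 8827 to 13229 normalized reads in old libraries, 47059 and 70373 in young ones, 11592 in the nerve and 73288 in the wall. Esam, an adhesion molecule of endothelial junctions, stood at 1151, 1025, 388 and 726 against 4362 and 9735, 653 in the nerve and 8301 in the wall (-3.10, adjusted p = 0.0015). Egfl7 and Cldn5, a tight junction gene, fell by 2.53 and fell by 2.77 on the log2 scale (adjusted p = 0.00034 and 0.0055). The nerve value of Egfl7 (1819) lay above all old ones, and that of Cldn5 (1155) within the old range. Of 13 pericyte and smooth muscle genes 5 fell (sums 4544 to 7124 in old libraries, 16466 and 45090 in young ones, 3274 in the nerve and 54273 in the wall). Kcnj8, a potassium channel of pericytes, stood at 229.7, 134, 206 and 183 against 1703 and 2109, with 279 in the nerve and 3127 in the wall (-3.35, adjusted p = 0.00013). Of the calls, 6 of 7 endothelial and 3 of 5 pericyte genes were kept without old replicates 12 and 17.

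Lists of cochlear cells differed in how many members were called higher. Of 18 Schwann cell and myelin genes 11 rose (sums 162252 to 452781 in old libraries, 86894 and 107034 in young ones, 63447 in the nerve, 26830 in the wall), and of 20 spiral ganglion neuron genes 5 rose, near the share over all tested genes (median log2 difference 0.74; sums 340048 to 516794, against 306611 and 165490, with 39276 and 737). Of 15 genes of strial marginal and intermediate cells 4 rose around a median of 0.59, again near that share. Of 18 hair cell genes 8 rose and of 16 supporting cell genes 10, none fell in either list, and both had a median log2 difference of 3.58. Of the hair cell genes 11 had no reads in both young libraries, among them 6 of the 8 that rose. For supporting cell genes these numbers were 5, and 4 of the 10. In GFP-negative cells the median age differences of the lists were 3.78 and 1.01. Without old replicates 12 and 17 the higher calls kept were 6 of 11 Schwann cell, 2 of 5 neuron, 2 of 8 hair cell, 8 of 10 supporting cell and 4 of 4 strial genes. The sums of the hair cell and supporting cell lists did not separate the ages, with hair cell sums of 30449 to 54536 in old libraries against 61686 and 14811, and supporting cell sums of 36641 to 59512 against 127779 and 24615. Among 27 genes of collagens and matrix proteins there were 11 rises and 2 falls, while their sum was lower in old libraries (22275 to 33595) than in young ones (51949 and 34260). Of these, 9 of the 11 and 1 of the 2 were kept without old replicates 12 and 17. Of 84 ribosomal protein genes 20 fell and none rose, and young replicate 9 held 805645 summed normalized reads of them, against 336491 in young replicate 15 and 183924 to 259682 in old libraries. Without young replicate 9 none of the 20 was called, and without old replicates 12 and 17 3 were. Over all genes with at least 20 normalized reads in each of the 6 libraries 10.6% were lower, and 16.0% of those with transcripts under 1000 bases.

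Several calls close to the threshold also depended on single old libraries. Leaving out any 1 of the 4 ended the calls of Cfp, Chuk, Il18, Irak1, Nlrp1b, Nlrp3, Nsdhl, Tlr4, Tnfaip3, Tnip1, Traf6 and Tyrobp, with adjusted p from 0.0517 to 0.1. Leaving out 1 to 3 of them singly ended those of Apoe, Birc5, Ctsc, Ftl1, Gpnmb, Hsd17b7, Ifi30, Il6, Lpl, Ly86 and Serping1 (adjusted p from 0.0507 to 0.0945).

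The same contrast in GFP-negative cells, 4 old against 4 young libraries, called 303 genes higher (1.64%) and 15 lower (0.0813%), around a median of 0.39. The interaction called 1288 genes with a more positive difference in macrophages (6.98%) and 176 with a more negative one (0.954%). Of the 1027 genes lower in old macrophages, 130 had a negative interaction that passed, and of the 4441 higher ones 1274 a positive one. The negative group included Psmb8, Psmb9, Psme1, Irf9, Fcgrt, Fcgr3, Hexa, Hfe, Pycard, Rnase4 and Gins2 of the genes described, and the positive group Cxcl13, Il10 and Lmnb1. Of the genes named for a large difference with at least 20 normalized reads in all 6 libraries, Arhgap20 had the smallest adjusted p of a positive interaction (3.84, adjusted p = 0.00056) and Gins2 that of a negative one. Cx3cr1, not called for age in macrophages, had an interaction of -4.59 (adjusted p = 0.0037), with an age difference of 3.85 in GFP-negative cells. There Mrc1 was higher too (3.74, limma adjusted p = 0.002). The median difference in GFP-negative cells was 1.27 for core macrophage genes, 1.54 for Fc receptor, -0.48 for immunoproteasome and -0.46 for cathepsin genes. A negative interaction thus combines the change in macrophages with that in GFP-negative cells, and is not a macrophage fall by itself.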

How the data were processed

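RNA was sequenced from cells sorted by GFP, with 1 mouse per isolate and low-quality RNA left out, some libraries being sequenced again, per the labels' protocols. The submitters' processing notes name mm10, TopHat2, Partek and DESeq2, without versions. Nothing further is said of separate cultures or litters, so p-values measure the spread between these libraries. That spread was shared over the 14 libraries of 4 groups and is not that of the young macrophage pair. The pair varied more than the old group (median SD 0.722 against 0.225), so p-values can be too small for genes that varied between the 2 young libraries. The shared spread also takes in the GFP-negative libraries, so p-values can be too large for genes that varied more there. Of 20 macrophage core genes the main fit called 2 lower, and the fit of the 6 macrophage libraries alone called 9. For 18639 symbols the deposited table gives a signal in each library, from the values a read count that the authors divided by a library factor. Whole reads were recovered (100% of values under 10000 reads and 99.89% of those above 0 were whole within 0.1 read). The factors differed by at most 0.0909% from recomputed DESeq2 size factors. No replicate pair agreed within sampling noise. The authors' deposited test columns were not used.

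The plan allowed for counts or normalized values, and the table held the latter. limma 3.58.1 (R 4.3.3; mean-variance trend, robust) took log2(value + 1) from 14 sorted libraries of the whole cochlea, with means for 4 groups and a shared spread. Tested were the 18441 genes that reached 1 in 2 or more libraries, and the threshold was a Benjamini-Hochberg adjusted p of 0.05. This scale understates the change of low genes. Floors of 3 reads cover counting error only, as the values are read counts and not molecules. Fits were tested on simulated data.

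Alternatives were quantile normalization, a common total, edgeR 4.0.16, DESeq2 1.42.0 and voom on the recovered reads, the 6 libraries alone, quality weights, pseudocounts of 0.1 and 10, no filter, a filter of 10, a mean of at least 100, thinning to 20 M reads, nerve and wall added to young, and leaving out each library. Removal of the length trend (a loess fit of each library on log2 transcript length), and leaving out old replicates 12 and 17 together, were chosen after seeing the data.

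The members and gene lists were chosen with earlier results of these data known, and the list counts are descriptions. Named genes were those called, without overlap and with at least 20 normalized reads in each of the 6 libraries (12 largest log2 differences each way), those called, without overlap and with a higher group mean of at least 100 (8 each way), up to 6 called members of each list described by adjusted p, and textbook members. To these were added the 9 sort-check and marker genes and the 6 smallest adjusted p each way among genes with means of at least 1000 at both ages. Some genes that these rules select are not reported here. Predicted, clone, Xist and Y-linked names were left out of the rules on size. Near-identical family members may have exchanged reads, so their individual values are uncertain. Promoter sequences are from RefSeq (GRCm38.p6).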

Additional observations from a re-analysis of the deposited data

Results flagged for a closer look

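In 5 of the 159 named genes 1 of the 4 old libraries stood apart from the other 3. The gap test used flags about 1 in 20 groups of 4 by chance, and the flags were no more frequent than that. Old replicate 17 held the highest value of Col9a3 (8272 normalized reads, others 1502 to 2442), of Hmgcs1 (15847, others 7840 to 8593) and of Ly96 (472, others 414 to 423). Old replicate 12 held the lowest value of Egfl7 (611, others 1013 to 1065) and the highest of Pcna (1892, others 1624 to 1667). Each gene's call and direction is as given in the report.

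The age difference was unlike in macrophages and GFP-negative cells for 1464 genes by the interaction in limma. Among genes named for the size of their difference in macrophages, the difference was more positive there for Arhgap20 by 3.84 (adjusted p = 0.00056), Spon1 by 4.57 (0.0016), Rexo1 by 3.66 (0.0057) and Aebp1 by 4.22 (0.0078). It was more negative there for Gins2 (-3.64, adjusted p = 0.01) and Car9 (-5.31, adjusted p = 0.018).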

How the results depend on the processing

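Counts of calls moved by more than 1.5 times under several settings. The total of 5468 was 2693 without old replicates 12 and 17, 3533 with nerve and wall added, 362 with quality weights, and 4206 to 8490 when 1 library was left out. The 4441 higher genes were 2702 by edgeR, 2261 with the length trend removed, 2830 with a mean of at least 100, 2314 without old replicates 12 and 17, 2705 with nerve and wall, 2292 by quantile normalization, 362 with weights, and 3450 to 6484 with 1 library left out. The 1027 lower genes were 1936 by DESeq2, 609 at a common total, 3525 with the length trend removed, 379 without old replicates 12 and 17, 2277 by quantile normalization, 0 with weights, and 744 to 2006 with 1 library left out. The 1464 interaction genes were 2978 by DESeq2, 2413 with the length trend removed, 920 with a mean of at least 100, 866 without old replicates 12 and 17, 448 with nerve and wall, 638 by quantile normalization, 148 with weights, and 1116 to 5369 with 1 library left out (5369 without young replicate 15). The interaction could not be fitted to the 6 macrophage libraries alone. The cause of these shifts was not tested.

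Directions turned with the length trend removed for Hdlbp (-0.12), Hmgcs1 (-0.21), Irak1 (-1.06), Lpl (-0.074), Tfrc (-1.13), Traf6 (-0.0026), Trim2 (-0.38) and Ptprc (-2.08). With nerve and wall added they turned for Irak1 (-0.14), Psmb6 (0.014), Psmb7 (0.0905) and Ptprc (-1.03), and by quantile normalization for Cdkn2a (-0.19) and Lamp1 (0.0081). With 1 library left out, Csf1r ranged from -1.63 to 0.18 and Ptprc from -0.52 to 0.58. The Ptprc log2 difference, near 0, was also -0.083 by DESeq2 and -0.00605 when thinned. Of the 159 named genes, 124 kept call and direction by quantile normalization, 134 by edgeR, 121 with the length trend removed, 105 without old replicates 12 and 17, and 21 with weights. No paired analysis was possible because no replicate number occurs in more than 1 group.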
